A study of Mus musculus with 5 samples.

Results

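Group 2 innate lymphoid cells (ILC2s) were picked out of a Drop-seq atlas of the mouse colon mesenchyme by the transcripts found on each cell barcode. A retained barcode had at least 300 genes and at most 10% mitochondrial UMIs (unique molecular identifiers, 1 per captured RNA molecule). It was counted as a member when at least 2 of Il5, Calca, Gata3, Il13, Il1rl1 and Il7r had a UMI. It also had to show fewer than 2 of the 6 T cell genes Cd3d, Cd3e, Cd3g, Trbc1, Trbc2 and Trac, and fewer than 2 of the 5 stromal genes Col1a2, Col3a1, Dcn, Flt1 and Kdr. Of 7935 barcodes, 6005 were retained and 56 of these were members, a share of 0.933% (95% exact binomial interval 0.705 to 1.21%). The members are called ILC2-gated cells below, since the rule names transcripts and not a sorted population.

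All cells came from untreated C57/BL6 mice of 10 weeks and were freshly isolated. The tissue had been stripped of epithelium with EDTA and DTT and then digested with Collagenase XI and Dispase, so a share among retained cells describes that suspension. Biological replicate 1 was run as 2 droplet collections (1A and 1B) and biological replicate 2 as 3 (2A, 2B and 2C). There was 1 group of mice and no treatment, and the number of animals behind a replicate is not in the labels. The p-values below rest on how far differences between cell classes varied between the 2 replicates, pooled over all classes in the fit. They rest on these 2 replicates only. The collections held 1636550 to 3345732 UMIs each.

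ILC2s are tissue-resident lymphocytes without rearranged antigen receptors that depend on the transcription factors GATA3 and RORα. They sense alarmins released by stromal and epithelial cells, among them IL-33 through the receptor encoded by Il1rl1, and answer with the type 2 cytokines IL-5 and IL-13. IL-5 sustains eosinophils, IL-13 acts on goblet and smooth muscle cells, and neuropeptides such as CGRP, a product of Calca, modulate the response.

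The genes for IL-4, IL-13 and IL-5 lie together on mouse chromosome 11 (GRCm38, GENCODE M21), in the order Il4, Il13, Rad50 and Il5 over 122 kb. Il4 (53602982 to 53618669), Il13 (53631324 to 53634702) and Rad50 (53649519 to 53707319), a DNA repair gene, are on the minus strand, and Il5 (53720794 to 53725106) is on the plus strand. The antisense gene Gm12214 overlaps Il5, and how the authors assigned reads of overlapping genes is not given in the sources used here. The stretches before the start sites of Il5, Il13 and Il1rl1 are shown because these genes define the members and because GATA3, measured in the same cells, belongs to a family that binds GATA-containing sites. Each runs 5′ to 3′ on the gene's strand for 250 bases up to the start (RefSeq, GRCm38.p6), with the hexamers AGATAA and TGATAA in capitals.
Il5, chr11:53720544-53720793, plus strand: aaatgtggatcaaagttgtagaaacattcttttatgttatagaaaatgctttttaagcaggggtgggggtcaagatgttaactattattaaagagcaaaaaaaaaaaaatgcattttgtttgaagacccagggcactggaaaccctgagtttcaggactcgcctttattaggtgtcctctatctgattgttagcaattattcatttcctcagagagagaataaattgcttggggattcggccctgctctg
Il13, chr11:53634703-53634952, minus strand: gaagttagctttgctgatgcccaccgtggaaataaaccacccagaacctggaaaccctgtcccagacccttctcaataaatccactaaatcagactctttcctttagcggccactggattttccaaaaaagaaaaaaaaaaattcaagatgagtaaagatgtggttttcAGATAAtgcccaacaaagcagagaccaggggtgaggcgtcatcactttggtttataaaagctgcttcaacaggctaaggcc
Il1rl1, chr1:40429320-40429569, plus strand: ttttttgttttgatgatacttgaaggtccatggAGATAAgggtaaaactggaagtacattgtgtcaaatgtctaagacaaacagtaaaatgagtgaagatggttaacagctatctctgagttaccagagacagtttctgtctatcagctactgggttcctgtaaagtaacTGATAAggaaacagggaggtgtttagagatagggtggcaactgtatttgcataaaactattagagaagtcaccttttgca

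Windows of 300 bases (250 before and 50 after a start) were found for 10 of 11 genes looked for. Klrg1 was the exception. Counting the base before the start as position -1, AGATAA began at -81 in the Il13 window and at -217 in the first Il1rl1 window, where TGATAA began at -80. On the opposite strand, AGATAA matched at -218 for Calca and at -103 in the second Il1rl1 window. Of the 2 windows of Il4, the second held TGATAA on the gene's strand, 14 bases after the start, and the first held neither. The windows of Il5, Gata3, Il7r, Areg, Hs3st1 and Rora held neither hexamer on either strand. The related forms AGATAG and TGATAG were not searched, so this does not mean that a GATA-containing site is absent. The printed Il5 stretch holds ctatct, which reads AGATAG on the opposite strand. Over all 32851 mouse windows, 11.2% held AGATAA, 9.05% TGATAA and 18.6% either of them, on either strand. A match is a string of letters and no measured binding site.

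Members were present in each collection. There were 14 of 1733 retained cells in 1A (0.808%, 95% interval 0.442 to 1.35%), 10 of 1308 in 1B (0.765%, 0.367 to 1.40%), 14 of 1132 in 2A (1.24%, 0.678 to 2.07%), 8 of 864 in 2B (0.926%, 0.401 to 1.82%) and 10 of 968 in 2C (1.03%, 0.496 to 1.89%). The intervals of all 5 collections overlapped. The 2 biological replicates gave 24 of 3041 cells (0.789%) and 32 of 2964 (1.08%), a mean of 0.934% ± 0.205 (SD, n = 2). Intervals cover counting error only. The share depended on the rule: requiring at least 3 of the 6 genes left 30 members and 0.50%, and leaving Il7r out of the 6 left 41 members and 0.684%.

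Members had a median of 1180.5 UMIs and 652 genes per cell, beside 1089 UMIs for B cells, 1318 for T cells, 1414 for phagocytes and 1417 for fibroblasts chosen by comparable rules. The median mitochondrial share was 2.62% in members and 2.34% in T cells. Together the members held 69362 UMIs (31512 in replicate 1 and 37850 in replicate 2). A single UMI was therefore worth 54.9 CPM (UMIs per 1000000 UMIs of the summed cells) in collection 1A, and up to 117 CPM in 2B. One member barcode occurred in both 2A and 2B, with 733 and 398 UMIs. The 2 barcodes had 146 genes in common, out of 494 and 301. In all, 10 barcodes were shared between collections, 7 of them between 2A and 2B, and counting the shared member once left 55 distinct barcodes.

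The 6 genes of the rule are described here without a test, because they chose the cells. Il5 had 265 UMIs in 36 of the 56 members (64.3%). Its level was 3516 CPM in 1A, 3831 in 1B, 2693 in 2A, 1865 in 2B and 7084 in 2C. Collection 2C was the highest and 2B, with 3 Il5-positive cells, the lowest, but the replicate means differed little (3649 and 3963 CPM). Within members the gene was uneven. The 36 positive cells had a median of 5.5 UMIs and a maximum of 35, 9 of them had 1 UMI, and the 7 highest cells held 49.1% of all Il5 UMIs. In contrast, 1.06% of 4263 fibroblasts had an Il5 UMI at a higher median depth, and 2 of 114 T cells did (27 UMIs). Il5 had a UMI in 0 of 95 B cells and 0 of 255 phagocytes. That allows shares of cells with an Il5 UMI of up to 3.16% and 1.18%. It is a limit on detection and not on cells that express the gene. The fibroblast rule had no limit on the 6 genes and could take in cells that failed the stromal limit of the members. Cells that failed it alone held 150 Il5 UMIs and those failing the T cell limit too held 31. All fibroblasts together held 188. Such cells also bear on the fibroblast shares of other genes below. T cells, B cells and phagocytes had fewer than 2 of the 6 genes by rule.

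Gata3, the lineage factor, had 63 UMIs in 35 members (62.5%, against 1.15% of fibroblasts), mostly at 1 UMI per positive cell. Its level ran from 601 CPM in 1B to 1137 CPM in 2A. Calca had 69 UMIs in 24 members (42.9%, against 0.516% of fibroblasts) and varied widely between collections, from 376 CPM in 1B and 419 in 2A to 1483 in 1A and 1751 in 2C. The replicate means were again close (1015 and 978 CPM). Il1rl1, the IL-33 receptor, had 41 UMIs in 24 members (42.9%) at 419 to 816 CPM, and 3.0% of fibroblasts had at least 1 UMI of it. Il13 was rare, with 10 UMIs in 7 members (12.5%) and none in 2C, and 0.0704% of fibroblasts had a UMI of it.

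Il7r, the IL-7 receptor chain that many lymphocytes carry, had 65 UMIs in 32 members (57.1%) at 699 to 1194 CPM. It was the least restricted of the 6 genes. T cells had 798 CPM ± 164 beside 925 ± 186 in members (SD, n = 2), 51.8% of T cells and 29.0% of phagocytes had a UMI of it, and so did 5.79% of fibroblasts.

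**Figure D1:**
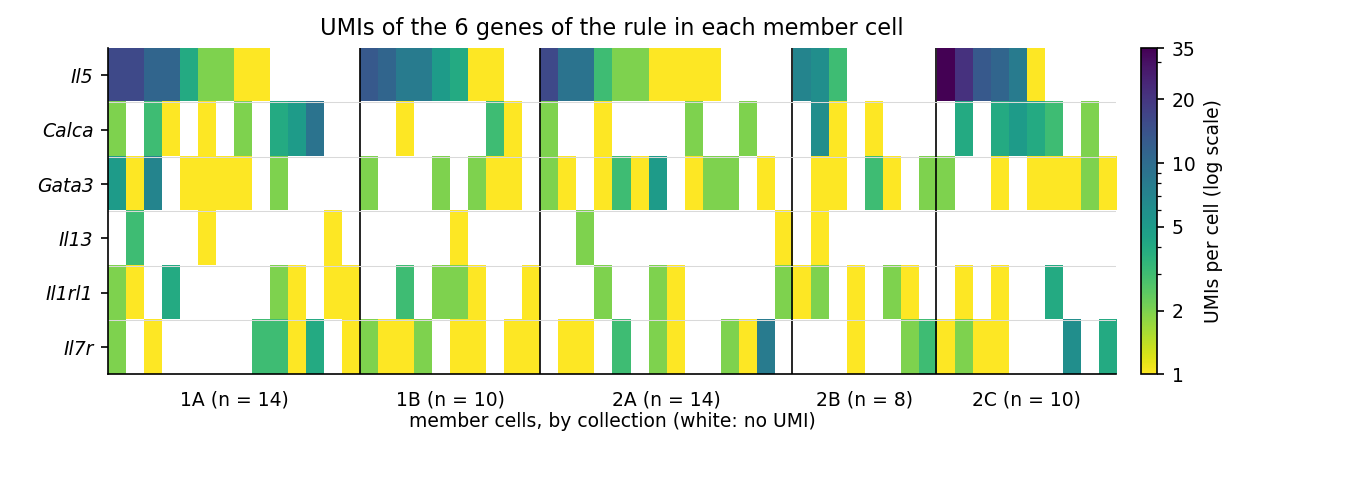
UMIs of the 6 genes of the rule (rows) in each of the 56 ILC2-gated cells (columns), grouped by collection and sorted within it by Il5. Colour gives UMIs per cell on a log scale and white marks a gene with no UMI: Il5 reaches 35 UMIs in a cell of 2C, while Il13 is found in 7 cells.

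The 6 transcripts overlapped in part. Il5 and Gata3 were seen together in 24 members, 66.7% of the Il5-positive and 68.6% of the Gata3-positive cells. Calca was accompanied by Gata3 in 17 of 24 cells and by Il5 in 16 of 24. The most frequent combinations were Il5, Calca and Gata3 (6 cells) and Gata3 with Il7r (5 cells). The threshold of 2 genes carried weight: 26 members had exactly 2 of the 6, 17 had 3, 10 had 4 and 3 had 5.

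Cells just outside the rule differed in kind. With 1 of the 6 genes and the other limits met, 193 cells were left out. Il7r was that gene in 173 of them, Rora stood at 696 CPM in them, and Il5 was found in 8. Another 63 cells had 2 or more of the 6 genes and failed a limit: 12 the T cell limit alone, 40 the stromal limit alone and 11 both. The 40 cells that failed on stromal genes had Il5 in 20 cells (1196 CPM), Rora at 2129 CPM and a median of 2073 UMIs, above the 1180.5 of members. The 12 that failed on T cell genes had Rora at 3706 CPM and Calca at 982 CPM. These 12 were left out of the T cells too, by the limit on the 6 genes. Klrg1 had 10 UMIs in them, beside 11 in all 114 T cells. Their weight in the differences from T cells was not tested. Members just inside, with 2 of the 6 genes, had Rora at 5077 CPM and Hs3st1 at 274 CPM. Those with 3 or more had 6444 and 932 CPM.

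Traces of other cells were present among the members. At the limits of the rule, 17 members had 1 T cell gene and 35 had 1 stromal gene. A further 4 members had at least 2 of 6 phagocyte genes (3 in collection 1B and 1 in 2B), and these 4 held 8.84% of the members' UMIs. The 2 with the most phagocyte genes (6 and 5) had entered through Il1rl1 and Il7r. No doublet caller was run, and 17 members had 2 or more markers of some other class, so counts are also given without such cells.

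UMIs were summed per class and biological replicate, and ILC2-gated cells were set against 114 T cells, 95 B cells and 255 phagocytes with edgeR's quasi-likelihood test. All genes used to choose any class were kept out, which left 5185 tested genes. Against T cells, 155 genes were higher in members (2.99% of those tested) and 40 were lower (0.771%) at an adjusted p under 0.05. Of the 155, 153 were higher in both replicates. DESeq2 on the same sums called 67 higher and 4 lower, so the share of calls that were higher was 94.4% beside 79.5% in edgeR. Without the 17 members that had markers of another class, 59 genes were higher, all of them among the 155, and 28 were lower. Without the 4 members with phagocyte genes, 115 were higher, again all among the 155, and 39 were lower. Leaving out collection 2A left 50 higher and 9 lower, without 1A the counts were 83 and 25, and without 1B 97 and 20.

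Of 62 genes called against T cells that were examined one by one, 17 kept their call under all 21 alternative settings. These were Areg, Basp1, Cd44, Cxcl2, Furin, Gla, Gpr65, Hes1, Hilpda, Hs3st1, Id2, Nr4a2, Odc1, Rgs2 and Rora, which were higher in ILC2-gated cells, and Ccl5 and Lef1, which were lower. They are described first within the groups that follow, each with CPM in the order 1A, 1B, 2A, 2B, 2C. T cells of 2B were only 7 cells. The gene lists behind these groups were chosen with earlier results of these data known, so their counts and medians are descriptions and no independent support.

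Without the 17 members with other markers, 27 of the 62 calls were lost. Among genes of the lists these included Nfkb1 (adjusted p = 0.055), Tcf7 (0.052), Tnfrsf18 (0.076), Icos (0.32), Rgs1 (0.8), Cd2 (0.082), Ltb (0.078), Atf3 (0.24), Fosb (0.24) and Hsp90aa1 (0.59). Also lost were Pak1 (0.094), Lpar6 (0.29), Ccl4 (0.73) and the 8 lower genes from Fam65b (0.054) to Klrd1 (0.17). Transcription factors then numbered 4 higher and 0 lower of 19, receptors for alarmins and cytokines 2 higher of 15, surface genes 8 higher and 1 lower of 31, immediate-early and heat-shock genes 4 higher of 22 and T-lineage genes 2 lower of 12. Over all 5103 genes tested in that setting, 59 were higher and 28 lower. The lists of class II and phagocyte genes are left to their own paragraphs, because Cd74, H2-Aa, Lyz2 and Ms4a7 are among the markers by which these 17 cells were left out.

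**Figure D2:**
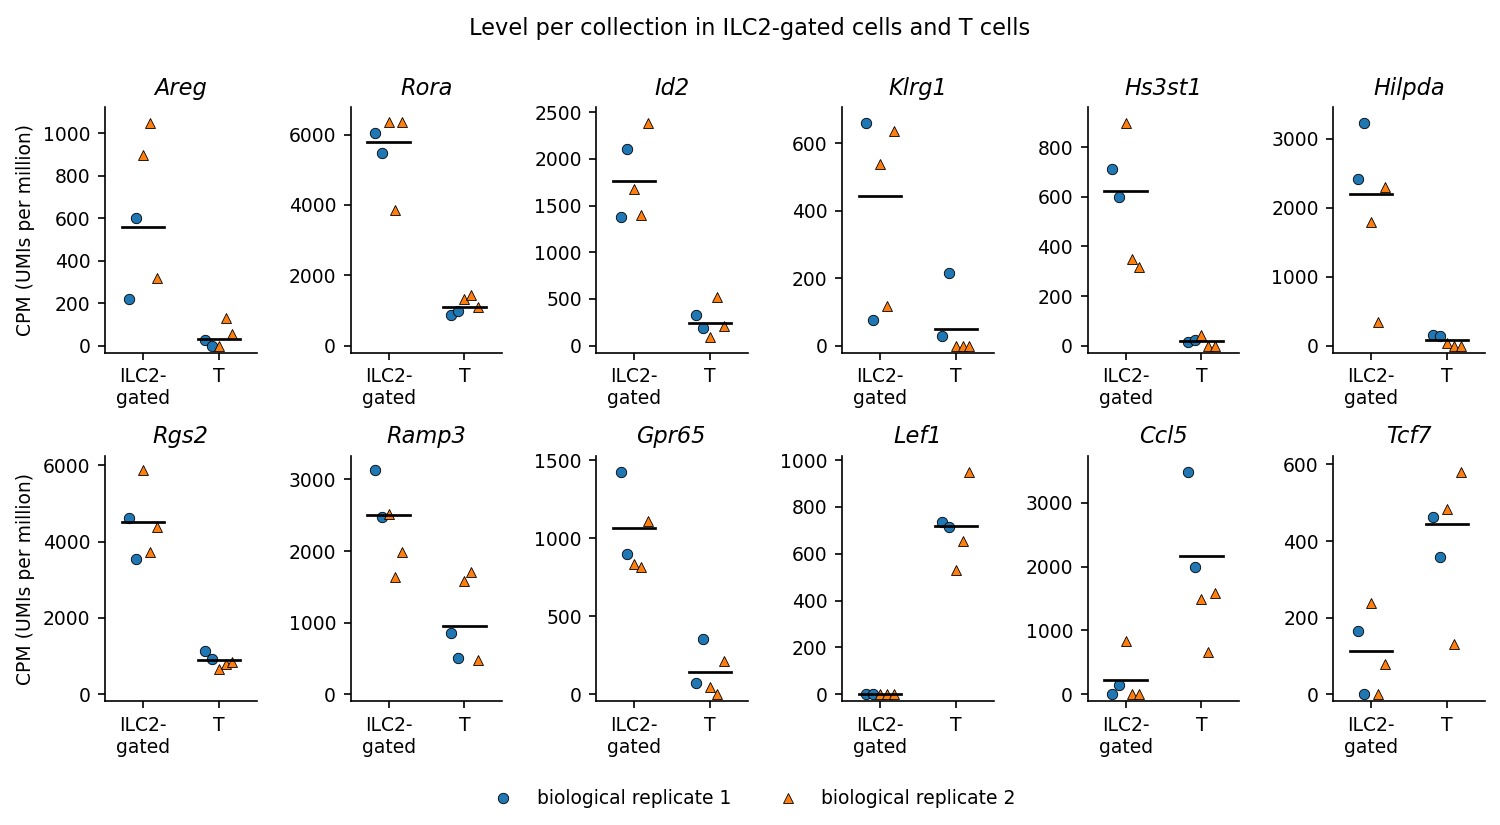
CPM of 12 genes in ILC2-gated cells and T cells, a point per collection (circles for biological replicate 1, triangles for 2) and a bar at the mean of the 2 biological replicates. For Areg, Rora, Id2, Hs3st1, Hilpda, Rgs2 and Gpr65 the lowest ILC2-gated point lies above the highest T cell point, while Klrg1, Ramp3, Ccl5 and Tcf7 overlap and Lef1 is at 0 in all ILC2-gated sums.

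Among transcription factors of ILC2 development, 5 of 19 tested genes were higher than in T cells and 1 was lower. Over all tested genes, 2.99% were higher and 0.771% lower than in T cells. The median log2 fold change of the list was 0.82, beside -0.16 over all tested genes. Rora, the nuclear receptor ILC2s require, stood at 6044, 5484, 6344, 3847 and 6368 CPM in members and at 880 to 1443 CPM in T cells. Every member collection was above every T cell collection. The fitted log2 fold change was 2.48 ± 0.26 (SE, adjusted p = 9.2e-19), and the 402 UMIs came from 50 of the 56 cells. Among fibroblasts 31.3% had a UMI of Rora, while all B cells together held 2 UMIs of it.

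Id2, an inhibitor of E proteins needed by all innate lymphoid cells, reached 1374, 2104, 1676, 1399 and 2388 CPM in members and 88.1 to 525 CPM in T cells. The groups did not overlap, and the difference was 2.84 ± 0.34 (log2, SE, adjusted p = 5e-14). Members also exceeded B cells (49.3 CPM ± 6.27), whereas phagocytes had 978 CPM ± 48.2 and did not pass the test against members (adjusted p = 0.13).

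The other 3 higher factors were less stable. Nfkb1, a subunit of NF-κB, was higher by 1.77 ± 0.38 (adjusted p = 0.00034, but 0.15 without 2A). Nr4a1, an orphan nuclear receptor induced on activation, was higher by 2.13 ± 0.40 (adjusted p = 1.3e-05, but 0.18 without 1A). Ikzf3, the Ikaros-family factor Aiolos, was higher by 1.56 ± 0.41 (adjusted p = 0.0064), a call lost without 1A, 1B, 2A or 2C (adjusted p = 0.079, 0.082, 0.13 and 0.086) and in DESeq2 (adjusted p = 0.18).

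Tcf7, encoding TCF-1 of T cells and innate lymphoid precursors, was at 114 CPM ± 26.1 in members and 445 ± 31.8 in T cells. The difference of -1.87 ± 0.60 passed narrowly (adjusted p = 0.047) and was lost without any of 1A, 1B, 2A and 2C (adjusted p = 0.079, 0.14, 0.14 and 0.15). Bcl11b (-0.09), Ets1 (-0.22), Maf (0.34) and Tox (0.93), factors shared with T cells, did not pass the test in either direction, and Gfi1 had no UMI in members.

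Of type 2 cytokines and other ILC2 effectors outside the rule, 7 of 19 genes present in the tables had enough UMIs to test. Areg, the EGF-family ligand amphiregulin known for epithelial repair, was higher, with 220, 601, 898, 1049 and 318 CPM in members and 0 to 131 CPM in T cells. The lowest member collection lay above the highest T cell collection. The log2 difference was 4.26 ± 0.71 (SE, adjusted p = 3.6e-07), and Areg was above phagocytes by 4.53 and B cells by 5.53 as well. Members with an Il5 UMI held 38 of the 40 Areg UMIs, while these cells held 67.5% of all member UMIs.

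Ccl5, a chemokine of effector T and natural killer cells, was the lower gene of the list. It was at 0 CPM in members of 1A, 2B and 2C, 150 in 1B and 838 in 2A, where a single cell had 11 of the 16 UMIs. T cells ranged from 656 to 3491 CPM, and the difference was -3.26 ± 0.38 (adjusted p = 2.8e-14). The groups overlapped through 2A.

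Several cytokine transcripts sat in a few cells and were too rare for the test. Il4 had 8 UMIs in 4 members and none in T cells, at least 6.17-fold higher against a floor of 3 UMIs over all T cells. The cells with an Il5 UMI held 7 of those 8. Il3 had 7 UMIs in 2 members and none in T cells. Il2 had 8 UMIs in 2 members and 2 in T cells (ratio of CPM 9.26, 95% counting interval 1.85 to 89.5). Ccl1 had 11 UMIs in 4 members and 1 in T cells (ratio 25.5, 3.7 to 1096). These intervals treat UMIs as independent and leave out variation between cells and replicates, so they are no test of a difference. Il22, a cytokine of group 3 cells, had 18 UMIs, all in 1 member of 2C. Csf2 had 3 UMIs, Arg1 had 6, and Penk, Bmp7 and Hgf had none.

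Among receptors for alarmins and cytokines, 3 of 15 tested genes were higher than in T cells in edgeR and 0 in DESeq2. Over all tested genes, edgeR called 2.99% higher. None of the 15 was lower in either tool, and 5 were higher and 2 lower at an unadjusted p under 0.05 in edgeR. The list median was 0.89. Il2rb, the β chain of the IL-2 and IL-15 receptors, had 549, 225, 299, 583 and 478 CPM in members and 0 to 95.2 CPM in T cells, with no overlap. Its log2 difference was 2.65 ± 0.66 (adjusted p = 0.003), or 2.07 with adjusted p = 0.19 without 1A. Tnfrsf9, the costimulatory receptor 4-1BB, was higher by 1.82 ± 0.42 (adjusted p = 0.00088, but 0.063 without 1B and 0.054 without 2C). Tnfrsf18, encoding GITR, was at 759 CPM ± 85.5 in members and 328 ± 82.3 in T cells, a difference of 1.28 ± 0.41 (adjusted p = 0.047) that was lost without 1A, 1B, 2A or 2C (adjusted p = 0.56, 0.079, 0.73 and 0.066). The IL-2 receptor chains Il2ra (1.5) and Il2rg (0.89) did not pass. Il17rb, the IL-25 receptor, had 6 UMIs in 5 members and was too rare to test.

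Of receptors for neuropeptides, lipids and hormones, 19 were in the tables and 6 had enough UMIs to test. The list had 300 UMIs in members, 6 of the 19 had none, and among these were Nmur1, Vipr1, Vipr2 and Cysltr1. Ramp3, which shapes the ligand choice of the calcitonin receptor-like receptor, was the gene called higher than in T cells in edgeR, where 2 of the 6 were higher and 0 lower at an unadjusted p under 0.05, and DESeq2 called none in either direction. It had 3132, 2479, 2514, 1632 and 1990 CPM in members and 476 to 1706 CPM in T cells, so the ranges overlapped. The 171 UMIs came from 42 of the 56 members, and the log2 difference was 1.49 ± 0.28 in edgeR (adjusted p = 1.5e-05) and 1.51 in DESeq2 (adjusted p = 0.11). Members exceeded B cells (27.8 CPM) by 7.05 and phagocytes (94.2 CPM) by 4.40. Calcrl, which encodes that receptor, had 1 UMI and Ramp1 had 2. Nr3c1, the glucocorticoid receptor, reached 1425 CPM ± 489 in members and 801 ± 15.5 in T cells, a difference of 0.84 that did not pass (adjusted p = 0.12).

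Surface and other ILC2-linked genes gave the largest group, with 10 of 31 tested higher than in T cells, beside 2.99% of all tested genes. As with the other lists, the genes were chosen with earlier results of these data known, so the count is no independent support. None was lower in edgeR or DESeq2, while 4 were lower at an unadjusted p under 0.05 in edgeR. DESeq2 called 6 of the 31 higher. The list median was 1.10. Hs3st1, a heparan sulfate sulfotransferase, stood at 714, 601, 898, 350 and 318 CPM in members against 0 to 44.1 CPM in T cells. Its ratio to T cells, where 3 UMIs were found, was 33.2 (95% counting interval 10.6 to 167, adjusted p = 3.2e-09), and 38 of the 43 UMIs were in Il5-positive members. Those members held 67.5% of all member UMIs. Phagocytes had 7.26 CPM and 2.44% of fibroblasts had a UMI of it.

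Rgs2, a regulator of G protein signalling, stood at 4615, 3531, 5865, 3730 and 4378 CPM in members and 661 to 1140 CPM in T cells. The difference was 2.32 ± 0.26 (log2, adjusted p = 2.4e-15), and 25.9% of fibroblasts had a UMI of this gene. Odc1, the entry enzyme of polyamine synthesis, had 4176, 2028, 2274, 2448 and 3184 CPM beside 317 to 1443 CPM, a difference of 2.08 ± 0.28 (adjusted p = 8.2e-11). Gpr65, a proton-sensing receptor, was at 1428, 902, 838, 816 and 1114 CPM beside 0 to 357 CPM, a difference of 2.82 ± 0.42 (adjusted p = 4.6e-09). For these 3 genes the lowest member collection was above the highest T cell collection.

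Furin, a proprotein convertase, was higher by 3.15 ± 0.55 (adjusted p = 1.6e-06), with 110 CPM in 1A and 599 to 977 CPM in the other collections, beside 0 to 101 CPM in T cells. Cd44, the hyaluronan receptor of activated lymphocytes, was higher by 2.27 ± 0.40 (adjusted p = 1.3e-06). Its ranges overlapped, since 1B members were at 376 CPM and 2B T cells at 394 CPM.

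Klrg1, an inhibitory lectin-like receptor used to identify mature ILC2s, had 659, 75.1, 539, 117 and 637 CPM in members and 28.9, 214, 0, 0 and 0 CPM in T cells. Collection 1B was reversed relative to the others. The overall difference was 2.89 ± 0.66 in edgeR (adjusted p = 0.00077). It was lost without 1A (1.78, adjusted p = 0.25) and without 2A (2.67, adjusted p = 0.082), and DESeq2 gave 3.39 with adjusted p = 1.0. Members with Il5, which held 67.5% of all member UMIs, had 29 of its 31 UMIs, and 0.563% of fibroblasts had a UMI. Pdcd1, encoding PD-1, was higher by 2.32 ± 0.59 (adjusted p = 0.0045, but 0.061 without 1A and 0.43 without 2A). Icos, a costimulatory receptor shared with T cells, was at 1224 CPM ± 25.4 and 570 ± 285 in T cells. That difference of 1.24 ± 0.34 (adjusted p = 0.01) was lost without 1A, 1B, 2A or 2C (adjusted p = 0.19, 0.18, 0.27 and 0.23).

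**Figure D3:**
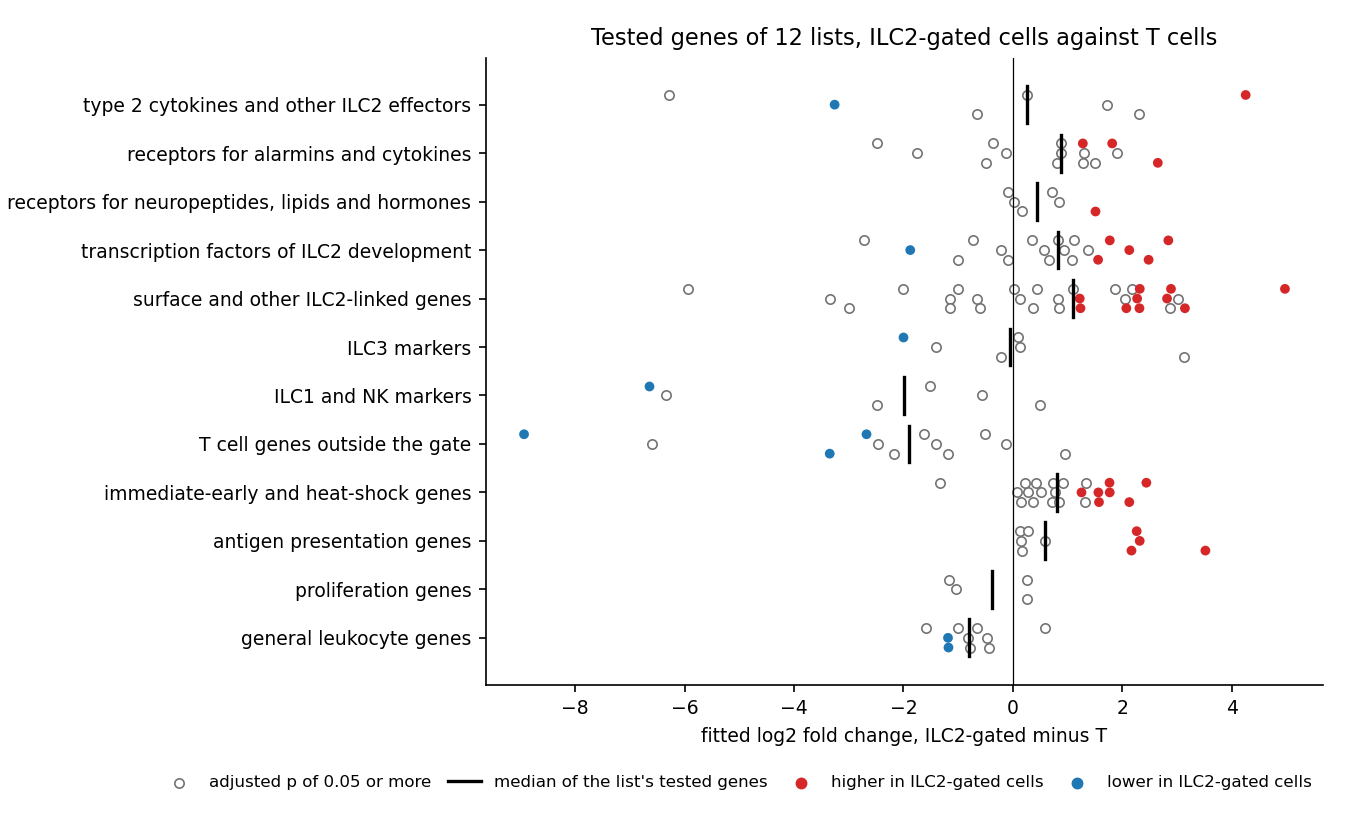
Fitted log2 fold change of ILC2-gated cells against T cells for each tested gene of 12 lists, with a bar at the median of each list. Red and blue points passed an adjusted p under 0.05 in edgeR: 10 of 31 surface genes and 5 of 19 transcription factors are higher, and 3 of 12 T cell genes are lower. Over all 5185 tested genes, 2.99% were higher and 0.771% lower.

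Beyond the lists, the genes of largest fold change were named by a fixed rule. Hilpda, a hypoxia-inducible protein that coats lipid droplets, was at 2417, 3230, 1796, 350 and 2308 CPM in members and 0 to 159 CPM in T cells. Collection 2B was far below the others but still above every T cell sum. The log2 difference was 4.40 ± 0.39 (adjusted p = 5.7e-26), and members were above phagocytes (272 CPM ± 60.3) by 2.69. Il5-positive members held 140 of the 149 Hilpda UMIs. In Il5-positive members the level was 2989 CPM, and in Il5-negative members it was 400 CPM. This contrast within the members is a description, since Il5 is a gene of the rule.

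Cxcl2, a neutrophil-attracting chemokine, had 1923, 1953, 1017, 816 and 2866 CPM in members beside 0 to 167 CPM in T cells, a difference of 4.70 ± 0.41 (adjusted p = 2.8e-26). Phagocytes had far more, 7078 CPM ± 213, and 21.4% of fibroblasts had a UMI of it. The 4 members with phagocyte genes held 21 of 121 Cxcl2 UMIs, and without them the adjusted p was 2.7e-19. Basp1, a membrane-associated signalling protein, stood at 350 to 557 CPM in members and had 2 UMIs in T cells (ratio 34.7, 95% counting interval 8.81 to 300, adjusted p = 5.4e-09). It reached 639 CPM ± 48.3 in phagocytes. Gla, the lysosomal α-galactosidase, was at 220 to 599 CPM and had 3 UMIs in T cells (ratio 20.1, 6.15 to 104, adjusted p = 1.5e-06), and phagocytes had 339 CPM.

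Hes1, a repressor downstream of Notch, had 1209, 451, 1197, 466 and 2229 CPM in members and 0 to 159 CPM in T cells. Its difference of 3.58 ± 0.43 (adjusted p = 7.3e-14) separated all collections. This gene was found in 74.3% of fibroblasts, and 711 CPM ± 31.2 were measured in phagocytes, against which members did not pass the test (adjusted p = 0.41).

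The other genes named by that rule rested on fewer UMIs or libraries. Rapgef2, an exchange factor for Rap GTPases (15 UMIs in members and 1 in T cells, ratio 34.7, interval 5.34 to 1462) and Ptpn13, a tyrosine phosphatase (32 and 3 UMIs, ratio 24.7, 7.73 to 126), were called in edgeR but not in DESeq2 (adjusted p = 0.067 and 0.1). Ptpn13 was at 0 CPM in 1B and 1017 CPM in 2A. Akap12, a kinase scaffold (ratio 15.4, 4.58 to 81.1), lost its call without 1B or 2A (adjusted p = 0.15 and 0.19), and the kinase Pak1 (3.52 ± 0.85) without 1B (adjusted p = 0.19). Lpar6, a lysophosphatidic acid receptor (3.49 ± 0.77), lost it without 1A or 1B (adjusted p = 0.091 and 0.074), and Rbfa (3.49 ± 0.82) without 1A (1.61, adjusted p = 0.59). Ccl4, a chemokine, had 24 UMIs in 5 members, with 13 in a single cell and 2 in Il5-positive cells. Its difference of 4.51 ± 0.78 (adjusted p = 1.3e-06) became 1.48 without the 17 members with other markers (adjusted p = 0.73), 1.69 with at least 3 of the 6 genes required (0.62) and 3.48 without 2A (0.091). The call was also lost without Il7r in the rule (adjusted p = 0.7) and in DESeq2 (0.43).

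**Figure D4:**
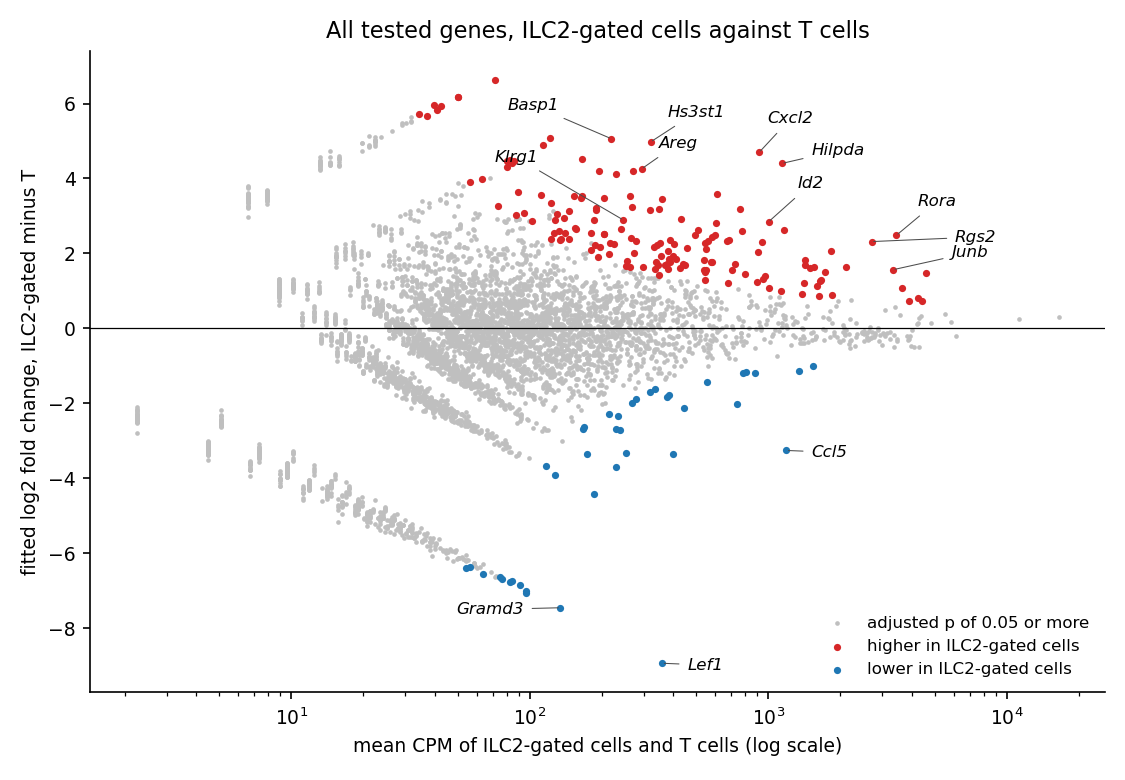
Fitted log2 fold change (vertical) against mean CPM of ILC2-gated and T cells (horizontal, log scale) for the 5185 tested genes. The 155 red genes were higher and the 40 blue genes lower in ILC2-gated cells, and the slanted outer bands are genes with few or no UMIs in 1 of the 2 classes.

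Of T-lineage genes outside the rule, 3 of 12 tested were lower in members, beside 0.771% of all tested genes. No UMI was found in members for 7 of the 20 listed. Since T cells were chosen by their antigen receptor genes and members limited on them, this direction goes with the choice of cells. Lef1, a Wnt-responsive factor of naive T cells, had no UMI in members and 736, 714, 529, 656 and 951 CPM in T cells, so members were at least 16.7-fold lower against a floor of 3 UMIs over all members (adjusted p = 5.3e-10). The adhesion receptor Cd2 (-2.67 ± 0.71, adjusted p = 0.0072, but 0.22 without 2A) and Ms4a4b (-3.35 ± 0.60, adjusted p = 2.8e-06) were the other 2. DESeq2 called 1 of the 12 lower, with an adjusted p of 0.37 for Cd2 and 0.11 for Ms4a4b. None of the 12 was higher in edgeR or DESeq2, and 1 was higher at an unadjusted p under 0.05. The list median was -1.90, or -1.79 with genes at 0 set to that floor. Cd8a, Cd8b1, Foxp3 and Themis had no UMI in members and Cd4 had 1. Cd28 had 43 UMIs in 23 members and a difference of 0.95 that did not pass the test.

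The other genes of largest fall all had no UMI in members. Gramd3 was at least 5.90-fold lower (adjusted p = 0.00089, 0.22 in DESeq2). Fam65b, Sesn3 (a stress-responsive sestrin), Cd163l1 (a scavenger receptor of γδ T cells), Plcxd2, Utp14a, Ubac2, Klrd1 and Atp5k (an ATP synthase subunit) had 22 to 31 UMIs in T cells and bounds of 3.17-fold to 4.46-fold. Each of these 8 lost its call without at least 1 collection. DESeq2 did not call Utp14a (adjusted p = 0.19) or Atp5k (0.28) and gave no adjusted p for the others of the 8. Fam65b was lost without 1B (adjusted p = 0.067) or 2A (0.14), Sesn3 without 1A (0.061), 1B (0.062) or 2A (0.21), and Cd163l1 without 1B (0.079), 2B (0.067) or 2C (0.066). Klrd1, the CD94 chain of natural killer cell receptors, had an adjusted p of 0.0497 and was lost without any of 1B, 2A, 2B and 2C (adjusted p = 0.16, 0.16, 0.064 and 0.052). Utp14a was lost without 1A (0.061), 2A (0.13) or 2C (0.068) and Atp5k without 1A (0.05), 1B (0.19) or 2A (0.23). Plcxd2 was lost without 1A (0.13), 2A (0.19) or 2C (0.11), and Ubac2 without 1A (0.17), 1B (0.067), 2A (0.23) or 2C (0.056).

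Markers of neighbouring lymphoid types were checked as lists. Of the group 3 markers, Il17a, Il23r and Ccr6 had no UMI in members. Among 6 tested genes, Ltb, a lymphotoxin chain that T cells also make, was lower (-2.0 ± 0.60, adjusted p = 0.024, but 0.1 without 1B, 0.16 without 2A and 0.17 without 2C), and none was higher in edgeR or DESeq2. Il22, with its UMIs in 1 cell, was the gene at an unadjusted p under 0.05. Of the group 1 and natural killer markers, Eomes, Ifng, Gzmb, Prf1, Ncr1 and Nkg7 had no UMI and Tbx21 had 2. Klrd1 was the lower gene among 6 tested. None of the 6 was higher in edgeR, in DESeq2 or at an unadjusted p under 0.05. The summed levels were 587 CPM ± 515 in members and 743 ± 98.1 in T cells for the group 3 list, and 344 ± 37.2 and 1122 ± 725 for the group 1 list.

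Immediate-early and heat-shock genes, known to respond both to activation and to tissue dissociation, gave 7 of 22 tested genes higher than in T cells. Over all tested genes, edgeR called 2.99% higher than in T cells. None of the 22 was lower in edgeR, in DESeq2 (4 higher) or at an unadjusted p under 0.05, and the list median was 0.81. Their summed level was 2.17% ± 0.0740 of UMIs in members, 1.20% ± 0.108 in T cells, 1.13% in B cells and 2.09% ± 0.0353 in phagocytes. Against phagocytes, 4 of the 22 genes were higher and 8 lower. Over all tested genes, 5.94% were higher and 11.0% lower than in phagocytes, with a median log2 fold change of -0.48. Nr4a2, an orphan nuclear receptor, was at 769, 1127, 1317, 699 and 955 CPM in members beside 106 to 262 CPM in T cells, a difference of 2.44 ± 0.41 (adjusted p = 4.3e-07). Of its 69 UMIs, 61 were in Il5-positive members, which held 67.5% of all member UMIs. Junb, an AP-1 subunit, had 4080 to 6648 CPM and 1480 to 1968 CPM in T cells, a difference of 1.56 ± 0.25 (adjusted p = 5e-08, 0.071 without 2A), and 81.1% of fibroblasts had a UMI of it. Fosl2, another AP-1 subunit, was higher by 1.77 ± 0.39 (adjusted p = 0.0004, but 0.057 in DESeq2). Atf3 (1.58) and Fosb (1.77) were lost without 1A (adjusted p = 0.19 and 0.5), 2A (0.45 and 0.11) or 2C (0.054 and 0.068).

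Hsp90aa1 was higher by 1.26 ± 0.27 (adjusted p = 0.00034), but 59 of its 158 UMIs were in the 4 members with phagocyte genes. Without those cells the difference was 0.64 (adjusted p = 0.35), and without 2A it was 1.44 (adjusted p = 0.16). The part that handling played in this list was not tested.

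Of antigen presentation genes, against T cells, 4 of 9 tested genes were higher in edgeR and in DESeq2, namely the class II genes Cd74, H2-Aa, H2-Ab1 and H2-Eb1. Over all tested genes, edgeR called 2.99% higher. None of the 9 was lower in either tool or at an unadjusted p under 0.05. Cd74, the invariant chain, had 165, 2404, 1796, 933 and 318 CPM in members and 0 to 317 CPM in T cells, while B cells had 9224 CPM and phagocytes 13039. Members exceeded T cells by 2.32 ± 0.36 (adjusted p = 3.8e-08), and the 4 members with phagocyte genes held 37 of the 77 UMIs. Without those 4 cells the difference was 1.35 (adjusted p = 0.068), and without 2A it was 1.95 (adjusted p = 0.14). H2-Eb1 was at 0 CPM in 1A and 1352 in 1B. Its 33 UMIs lay in 5 members, 20 of them in those 4 cells, and without them the difference fell from 3.52 to 2.18 (adjusted p = 0.087). H2-Aa (2.27) and H2-Ab1 (2.17) lost their calls without 2A (adjusted p = 0.37 and 0.39). The call of H2-Ab1 was also lost without 1B (adjusted p = 0.054). Without the 4 members with phagocyte genes, H2-Aa kept its call (1.75, adjusted p = 0.023) and H2-Ab1 did not (1.46, adjusted p = 0.13), which left 1 of the 9 genes higher. With at least 3 of the 6 genes required, Cd74 (-0.34) and H2-Ab1 (-0.49) turned below T cells, where neither passed the test.

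Phagocyte markers outside the choice of classes were checked in the same way. Lyz2, encoding lysozyme (13 UMIs, 2.88 ± 0.79) and Ms4a7 (7 UMIs in 2 members, none in T cells, at least 5.40-fold) were called against T cells. Without the 4 members the adjusted p was 0.42 and 0.11. Lyz2 was also lost without 1B, 2A or 2B (adjusted p = 0.065, 0.32 and 0.22) and Ms4a7 without 1B or 2A (0.16 and 0.31). The summed phagocyte list was at 912 CPM ± 168 in members and 74.4 ± 67.1 in T cells, with 64 UMIs in all. Apoe had 33 of its 42 UMIs in those 4 cells. Their part in the remaining differences was not tested beyond these values.

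Markers of further cell types had few UMIs. Those of mast cells and basophils had 2 UMIs, those of enteric neurons 2, of enteric glia 1 and of epithelium 4 in all members together. Fibroblast and endothelial genes outside the rule had 26 UMIs (359 CPM ± 239, beside 329 ± 5.21 in T cells), mural and muscle markers 9, plasma cell markers 39 (574 CPM ± 176, beside 482 ± 107) and γδ and invariant T cell genes 8, of which Cd163l1 was the lower of 2 tested. Of the tested fibroblast and endothelial (7), mural (6), plasma cell (4) and proliferation genes (4), none was called against T cells in edgeR or DESeq2 or had an unadjusted p under 0.05. Cd79a, Cd79b and Ms4a1 of B cells had no UMI, and the 2 genes of the B cell list higher than in T cells were Cd74 and H2-Aa. Proliferation genes summed to 505 CPM ± 4.07 in members and 554 ± 296 in T cells.

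General leukocyte genes summed to 6518 CPM ± 700 in members, 7703 ± 411 in T cells, 6629 ± 1031 in B cells and 4417 ± 454 in phagocytes. Against T cells, 2 of 10 tested genes were lower, beside 0.771% of all tested genes. Ptprc, encoding CD45, was at 659, 751, 539, 0 and 159 CPM in members and 787 to 1476 CPM in T cells, a difference of -1.18 ± 0.35 (adjusted p = 0.025, but 0.21 without 2A and 0.08 without 2C). Cytip fell on the same side (-1.18 ± 0.35, adjusted p = 0.025), a call lost without 1B (0.14) or 2A (0.28). None was higher in edgeR or DESeq2, 1 was higher at an unadjusted p under 0.05, and DESeq2 called 0 lower. Within the type 2 cytokine locus, Rad50 was higher (2.17 ± 0.65, adjusted p = 0.025) with 20 of its 21 UMIs in Il5-positive members. Those members held 67.5% of all member UMIs. The Rad50 call was lost without 1A (1.16, adjusted p = 0.59), 1B (0.09), 2A (0.23) or 2B (0.082).

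Against B cells, 267 genes were higher in ILC2-gated cells (5.15% of those tested) and 109 lower (2.10%). DESeq2 called 145 and 23, so that higher calls made up 86.3% beside 71.0% in edgeR. Leaving out 2A left 142 and 43, leaving out 1A left 163 and 50, and without the 17 members with other markers there were 162 and 125. The genes of largest fold change that were also higher than in T cells had no UMI in B cells. Against a floor of 3 UMIs over all B cells, Tnfrsf9 was at least 32.1-fold higher, Furin at least 22.7-fold, Sytl3, a vesicle-trafficking protein, at least 21.6-fold, Pdcd1 at least 18.3-fold and Klrg1 at least 17.2-fold. Among surface genes 16 of 31 were higher and 1 was lower, Ccr7, the lymph node homing receptor. Among transcription factors 11 of 19 were higher than in B cells, Rora by 8.25 and Id2 by 5.05.

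Against phagocytes, 308 genes were higher (5.94%) and 571 lower (11.0%). DESeq2 called 170 and 144, so that higher calls were 54.1% beside 35.0% in edgeR. Leaving out 2A left 153 and 317, without 1A 368 were lower, and without the 17 members with other markers there were 203 and 612. The median log2 fold change of all tested genes was -0.48 here and -0.60 under DESeq2, so fold changes against phagocytes are read relative to that median. Tnfrsf18 had no UMI in 255 phagocytes and was at least 110-fold higher in members. Ptpn13 was at least 66.6-fold higher, Klrg1 at least 64.5-fold and Npnt, the matrix protein nephronectin, at least 49.9-fold. Il2rb had 1 UMI in phagocytes (ratio 181, 95% counting interval 30.0 to 7393). Npnt was also higher than in T cells, by 3.21 ± 0.79 (adjusted p = 0.003), at 239 to 526 CPM in members. Receptors for alarmins and cytokines divided, with 9 of 15 higher, among them Il2ra, Il2rg and Il18r1, and 4 lower, which were Il10ra, Il1r2, Il21r and Il6ra.

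Some of the genes named here overlap others in the annotation, and the authors' rule for such reads is not given in the sources used here. These include Rora with Gm15511, Ramp3 with Gm11978, Tnfrsf9 with Camta1, Tnfrsf18 with Gm16008, Sytl3 with Ezr and Lpar6 with Rb1. In each of these pairs the genes lie on opposite strands, so reads that keep their strand would separate them.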

How the data were processed

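Untreated mouse colon mesenchyme was profiled by Drop-seq in 5 collections of 2 biological replicates. The tables the authors deposited are raw UMI counts, genes by barcodes, with no scaling. The submitters' processing notes name STAR 2.6 and the build mm10. The counting program, annotation and barcode selection are not given in the sources used here. The members, comparison classes and gene lists were chosen with earlier results of these data known.

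T cells, B cells (5 genes, since a further planned gene was not among the table rows used here) and phagocytes were chosen by rules of the same kind. Counts of retained cells were summed into 8 sums (4 classes, 2 replicates) and tested with edgeR 4.0.16 in R 4.3.3: two-sided quasi-likelihood F tests, TMM scaling, biological replicate as a block, genes with at least 20 UMIs over the 8 sums, Benjamini-Hochberg adjustment over all 5185 genes, 3 residual degrees of freedom. The block follows from the design, because sums of 1 replicate share a cell suspension. The replicate differences of the members correlated at 0.0127 with those of T cells, -0.0470 with B cells and 0.0759 with phagocytes. Fold changes are fitted log2 values. The SE in edgeR was derived as the absolute log2 fold change over the square root of its F statistic. The test was checked on simulated sums in which only genes with many UMIs were changed, so the check does not cover sparse genes. Levels are CPM, mean ± SD of replicates. Where a class had no UMI, a bound used a floor of 3 UMIs over the class, and with 1 to 3 UMIs a ratio has an exact interval. Bounds and intervals cover the counting of pooled UMIs only, not variation between cells or replicates. Genes named against T cells were the 15 higher and 10 lower of largest fold change with at least 15 UMIs in the higher class and the same direction in both replicates, and against B cells and phagocytes the 5 higher that were also higher than in T cells. Gene models, ribosomal and mitochondrial genes were left out. All called genes of the 23 lists were also examined. DESeq2 1.42.0 and changes of the rule, filter, scaling, sums and libraries were the alternatives. The exclusion of members with phagocyte genes and the single count of the shared barcode were added after seeing the data. Motifs were searched in RefSeq windows.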

Additional observations from a re-analysis of the deposited data

How the results depend on the processing

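Each count of called genes was recomputed with 1 choice changed at a time. Genes higher than in T cells (155) numbered 85 with at least 3 of the 6 genes required, 102 without Il7r in the rule, 59 without members that had markers of another class (chosen by markers that include Cd74, H2-Aa, Lyz2 and Ms4a7), 67 in DESeq2 and 50 to 149 with a collection left out. Genes lower than in T cells (40) numbered 105 with sums per collection, 4 in DESeq2 and 9 to 44 with a collection left out. Against B cells, 267 higher became 177 (3 genes), 162 (other markers), 145 (DESeq2) and 142 to 250 (a collection left out), and 109 lower became 173 (sums per collection), 23 (DESeq2) and 43 to 122. Against phagocytes, 308 higher became 199 (3 genes), 203 (other markers), 201 (no filter on low counts), 170 (DESeq2) and 153 to 312, and 571 lower became 1282 (sums per collection, which treat collections of a replicate as independent), 144 (DESeq2) and 317 to 575. The share of 0.934% became 0.50% (3 genes), 0.651% (no T cell gene allowed, and also without members with other markers) and 0.684% (without Il7r). With a collection left out, the share ran from 0.886 to 0.966%. Apart from the fewer cells or genes tested, the cause was not tested. Without the replicate block the counts were 165 and 52 (T cells), 293 and 139 (B cells) and 325 and 636 (phagocytes), within 1.5 times of those with it.

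Over the 72 gene calls examined, 25 held under all alternatives that gave them an adjusted p and 47 were lost under at least 1. DESeq2 ended 31 of the 62 calls against T cells and leaving out 2A ended 31. DESeq2 gave no adjusted p for Cd163l1, Fam65b, Klrd1, Plcxd2, Sesn3 and Ubac2. These genes are counted as neither kept nor lost in it. Signs turned against T cells for Cd74 (-0.34 with 3 genes, -0.21 without Il7r, -1.52 without other markers), H2-Ab1 (-0.49, -0.32 and -0.69), H2-Aa (-0.68), H2-Eb1 (-1.03) and Lyz2 (-0.28), the last 3 without other markers. Leaving out cells by Cd74, H2-Aa or Lyz2 lowers these genes by construction. Depth limited the calls: 1987 of 5185 tested genes had at least 20 UMIs in members and T cells together, and a gene absent from the 69362 UMIs of members could still be present below about 3 UMIs.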

Other observations

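Of 119 retained cells with at least 2 of the 6 genes, 56 were members, so the limits on T cell and stromal genes left out more such cells than they kept. The 40 that failed the stromal limit alone still had Klrg1 in 9 cells and Areg in 8, and held 150 Il5 UMIs beside 265 in members. The 11 that failed both limits had Areg at 805 CPM and Rora at 3983 CPM. Because of their stromal transcripts these cells entered no test. Those with at least 2 of Col1a2, Col3a1 and Dcn were counted among the fibroblasts, whose shares are given beside those of members.

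Members with an Il5 UMI (36 cells) and without (20 cells) differed in level for several genes outside the rule, in values that carry no test because Il5 chose the cells. The median depth was 1228.5 UMIs per cell with Il5 and 972 without. Of the 4 members with phagocyte genes, 1 had an Il5 UMI. Areg was at 811 and 88.8 CPM, Klrg1 at 619 and 88.8 CPM, Ramp3 at 2733 and 1909 CPM and Id2 at 1964 and 1376 CPM. Ccl5 was at 42.7 and 621 CPM, the latter from 14 UMIs in 3 cells.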
